A study of Mus musculus with 5 samples.

Results

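The wild-type transcriptome of Hardy fraction A, the earliest B220+ CD43+ population in Hardy's scheme of mouse bone marrow B cell development, was described from 2 libraries (wt replicate 1 and wt replicate 2). Its members are the 22098 gene symbols of the deposited table, which is every symbol in the table, each represented by the transcript with the highest mean of the 2 libraries. The series holds 5 libraries, and the other 3 come from mice lacking zinc finger 1 or zinc finger 4 of Ikaros and were not analysed here. The cells came from C57BL/6 mice of wt genotype aged 6 to 7 weeks, were sorted from bone marrow without lineage depletion and are labelled as pro-B cells. The labels do not say whether the libraries came from separate mice or from pools, so the spread between them may be technical. No groups were compared, so no test was made, and values are given for each library in the order replicate 1, then replicate 2.

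Fraction A is defined by surface proteins. In the textbook scheme its cells carry B220, an isoform of CD45, and CD43, and have little heat-stable antigen (CD24) and no BP-1. Because several other bone marrow cells carry B220 and CD43, among them plasmacytoid dendritic cells (pDCs) and natural killer (NK) cell precursors, the gate is known to be mixed unless further markers are used. The pDC is the main source of type I interferon after virus sensing by Toll-like receptors, the NK cell kills through granzymes and perforin, and the pro-B cell assembles its heavy chain gene and makes the surrogate light chain.

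Of the genes chosen to mark the cells of the gate, Siglech, a sialic acid-binding lectin of pDCs, stood highest, at 936.2 and 838.4 RPKM (reads scaled to transcript length and library size), rank 14 of 22098 by the mean. Gzma, a granule protease of NK cells, was at 356.2 and 195.5 RPKM (rank 82). Dntt, the terminal transferase that adds bases at V(D)J junctions, was at 238.9 and 152.5 RPKM (rank 148). Igll1, the lambda5 part of the surrogate light chain, was at 88.3 and 40.3 RPKM (rank 820), and Cd79a, a signalling chain of the B cell receptor, was at 28.2 and 12.7 RPKM (rank 3553). Replicate 1 was the higher library for each of the 5, and the order of the 5 genes was the same in both libraries. In bulk RNA, fewer cells of a type and less RNA per cell cannot be told apart.

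The sequences upstream of these 5 marker genes are shown because they are the regulatory regions nearest to the transcripts that set the lineages of the gate apart. Each line gives the 250 bases before the RefSeq start site (build GRCm38.p6, which is not the build of the expression table), 5′ to 3′ on the strand of the gene. Siglech lies at chr7:55767934-55768183 (+), Gzma at chr13:113100982-113101231 (-), Dntt at chr19:41029025-41029274 (+), Igll1 at chr16:16863986-16864235 (-) and Cd79a at chr7:24897247-24897496 (+).
Siglech: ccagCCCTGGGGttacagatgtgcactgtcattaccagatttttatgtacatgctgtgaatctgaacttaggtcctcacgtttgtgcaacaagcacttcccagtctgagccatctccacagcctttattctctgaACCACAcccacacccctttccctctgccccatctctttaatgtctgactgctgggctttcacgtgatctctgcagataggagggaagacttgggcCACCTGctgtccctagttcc
Gzma: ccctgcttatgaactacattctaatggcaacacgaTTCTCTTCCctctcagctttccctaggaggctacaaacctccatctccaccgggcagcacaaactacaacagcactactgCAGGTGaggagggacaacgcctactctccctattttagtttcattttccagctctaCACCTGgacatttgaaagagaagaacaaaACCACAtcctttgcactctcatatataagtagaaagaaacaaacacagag
Dntt: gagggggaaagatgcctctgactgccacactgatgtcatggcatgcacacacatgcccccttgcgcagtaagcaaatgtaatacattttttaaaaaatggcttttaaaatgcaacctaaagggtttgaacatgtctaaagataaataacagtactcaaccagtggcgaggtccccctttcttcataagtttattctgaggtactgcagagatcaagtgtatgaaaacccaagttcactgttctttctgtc
Igll1: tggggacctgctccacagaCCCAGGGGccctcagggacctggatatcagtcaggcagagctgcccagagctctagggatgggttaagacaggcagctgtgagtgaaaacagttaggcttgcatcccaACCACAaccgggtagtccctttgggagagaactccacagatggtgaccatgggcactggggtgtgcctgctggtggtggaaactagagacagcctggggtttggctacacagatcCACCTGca
Cd79a: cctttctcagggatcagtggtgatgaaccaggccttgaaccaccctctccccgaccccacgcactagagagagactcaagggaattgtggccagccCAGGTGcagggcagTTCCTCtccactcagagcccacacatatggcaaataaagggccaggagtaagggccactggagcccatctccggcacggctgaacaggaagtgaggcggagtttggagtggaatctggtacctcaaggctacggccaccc
Capitals mark matches on either strand to 6 short motifs. These were the core promoter box with the letters TATAAA, the core that PU.1 and SpiB bind with the letters GAGGAA, and a composite of ETS and IRF sites with the letters GGAANNGAA. The others were an E box with the letters CAGGTG, the RUNX motif with the letters TGTGGT, and the EBF motif with the letters CCCNNGGG.

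The E box letters stood in 4 of these 5 sequences, once each in Siglech (20 bases before the start), Igll1 (8 bases) and Cd79a (154 bases), and at 135 and 79 bases before the start of Gzma. The RUNX letters were found in Siglech, Gzma and Igll1, and the EBF letters in Siglech and Igll1. Gzma held the composite of ETS and IRF sites, 215 bases before its start, and Cd79a the GAGGAA core. The Dntt sequence held none of the 6. Of all 32851 upstream sequences of this length in the RefSeq table, 17.2% held the E box letters, 14% the RUNX letters, 11.8% the EBF letters, 23.3% GAGGAA, 12.4% TATAAA and 6.99% the composite. None of the matches overlapped another. A match describes the letters and is no evidence of binding.

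Levels spanned a wide range. Of the 22098 symbols, 10576 (47.9%) were at 1 RPKM or more in both libraries, 5746 (26%) at 10 or more, 347 (1.57%) at 100 or more and 8 at 1000 or more, while 7982 (36.1%) were listed at 0 in both. The 100 highest symbols held 19.5% and 19.3% of the summed RPKM, and 50% of it was reached by the first 998 symbols in replicate 1 and the first 986 in replicate 2. The libraries shared 26 of their 30 highest symbols and 82 of their 100 highest. The median transcript length was 1700 bases for the 100 highest symbols and 2713 bases for the 10835 symbols whose mean reached 1 RPKM.

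**Figure D1:**
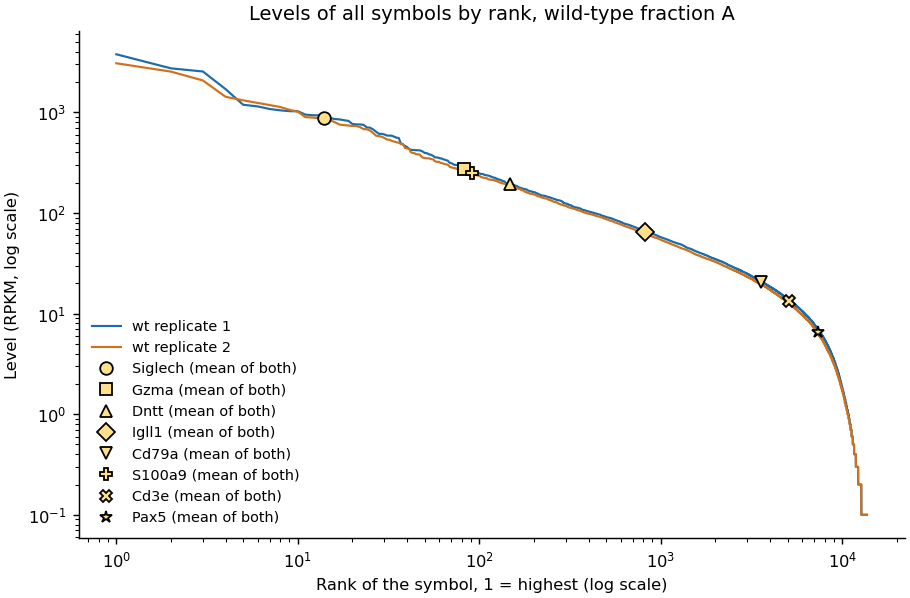
Level of every symbol above 0 in each wild-type library (RPKM, log scale) against its rank in that library (log scale). Points give 8 named genes at their mean level and the rank of that mean. Both lines run together, and Siglech (rank 14) lies far above Cd79a (rank 3553) and Pax5 (rank 7362).

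The highest symbol was Tmsb4x, which encodes the actin-binding thymosin beta 4, at 3779.8 and 2541.9 RPKM. It was followed by Psap, the precursor of the lysosomal saposins (2739.5 and 3076.6), by B2m, the light chain of MHC class I (2548.9 and 2075.9), and by Tyrobp, the DAP12 adaptor that couples activating receptors of NK and myeloid cells and also Siglec-H (1702.5 and 1428.5). Rank 5 was held by Irf8, a transcription factor required for pDCs and other dendritic cells, at 1190.3 and 1317.2 RPKM. The next ranks were held by Bst2, a tetherin that serves as a pDC antigen in the mouse (1047.8 and 1241.7), the pore-forming Mpeg1 (1146.6 and 1131.3), Ly6d (913.1 and 1179), Plac8 (1026.1 and 1060.5) and the galectin Lgals1 (950.9 and 1015.1).

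Of the 30 leading symbols, 5 were members of the pDC list (Irf8, Bst2, Plac8, Siglech and the phospholipase family member Pld4, at 588.4 and 740.5 RPKM). A further member of a lineage list was Ly6d, of the early lymphoid list, and another was Cd74, the invariant chain of MHC class II (1079.7 and 850.7). No NK, T cell or B lineage list member was among the 30. The others included the actin-binding profilin Pfn1 (752.1 and 897.1), Coro1a (758.8 and 732.5), Actb (766.3 and 679.2), Lsp1 (851.4 and 888.2), Arhgdib (708.9 and 534), Tagln2 (588.1 and 585.7) and Sh3bgrl3 (603.2 and 581).

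The MHC class I heavy chain H2-K1 (835.5 and 660.7 RPKM), the lysosomal Laptm5 (759 and 714.5) and Grn, the precursor of granulins (611.8 and 756), were also among the 30, as were the iron store Fth1 (858.7 and 731.1), Ly6e (935 and 876.3), Serinc3 (704.6 and 623.1) and Cd7, a surface protein of T and NK cells (677.2 and 499.3). Translation genes included Rpl8 (823.4 and 747.4) and Gnb2l1, which encodes the ribosomal scaffold RACK1 (878.2 and 682.4). Ranks of such genes have a limit, because several ubiquitous genes with processed copies in the genome were near 0. Gapdh was at 0.4 and 0.5 RPKM and Eno1 at 0 and 0.2, and of 79 ribosomal protein symbols 9 had a mean under 1 RPKM, 7 had 100 or more, and the median was 6.2. Nothing in the labels or headers says how reads of near-identical copies were shared.

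The genes that define the gate were measured next. Ptprc, which encodes CD45 and its B220 isoform, was at 389.2 and 277.6 RPKM, and Spn, which encodes CD43, at 191.1 and 182.8. Cd24a, the heat-stable antigen, was at 11.5 and 10.1 RPKM, and Enpep, the BP-1 aminopeptidase of later B cell precursors, at 0.5 and 0.3. The transcripts of the 2 proteins present in the gate were above 100 RPKM in each library. Those of the 2 low or absent proteins were at or below 11.5, though Cd24a stood at percentile 73.8 of all symbols. How reads of near-identical copies were shared is not given, so a low value does not show low expression. Reads for Ptprc do not show which isoform was made.

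Other surface genes used to divide the gate further were also present. Il2rb, the IL-2 and IL-15 receptor chain of NK cells, was at 420.4 and 179.9 RPKM, Cd4, which mouse pDCs also carry, at 146.3 and 154.1, and Il7r at 99.3 and 85.9. Cd93, the AA4.1 antigen of B cell precursors, was at 27.9 and 21.6 RPKM, Itgam at 26.8 and 19.4 and the stem cell factor receptor Kit at 9.9 and 5.8. Ly6c1 was at 0.2 and 0.1 RPKM, while its close copy Ly6c2 was at 69 and 28.6, so the division of reads between them is uncertain.

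The mix of lineages was described with 15 lists of marker genes, none of which shares a member with another. Ordered by the median level of their members, the pDC list came first (133 RPKM in replicate 1 and 170 in replicate 2). The list of conventional dendritic cell and MHC class II genes (62.8 and 44.6), the NK cell list (67 and 33.9) and the early lymphoid progenitor list (48 and 46) followed, then the early B lineage (24.2 and 12.3) and T cell lists (23 and 14.5). The neutrophil list was at 5.7 and 10.6 and the mature B and plasma cell list at 5.15 and 2.65. The erythroid (1.05 and 2.15), monocyte and macrophage (1 and 1.3), innate lymphoid (1.1 and 0.8), stem and multipotent progenitor (0.65 and 0.9), basophil, mast cell and eosinophil (0.4 and 0.6), megakaryocyte (0.2 and 0.2) and stromal and endothelial lists (0.15 and 0.2) were lower. The pDC list was above each other list in both libraries. The 3 lists that followed the pDC list overlapped in range, as did the early B and T cell lists, and those from the erythroid to the stem list, so their order is not separated from the spread. Medians depend on which genes were put on a list and are not shares of cells.

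**Figure D2:**
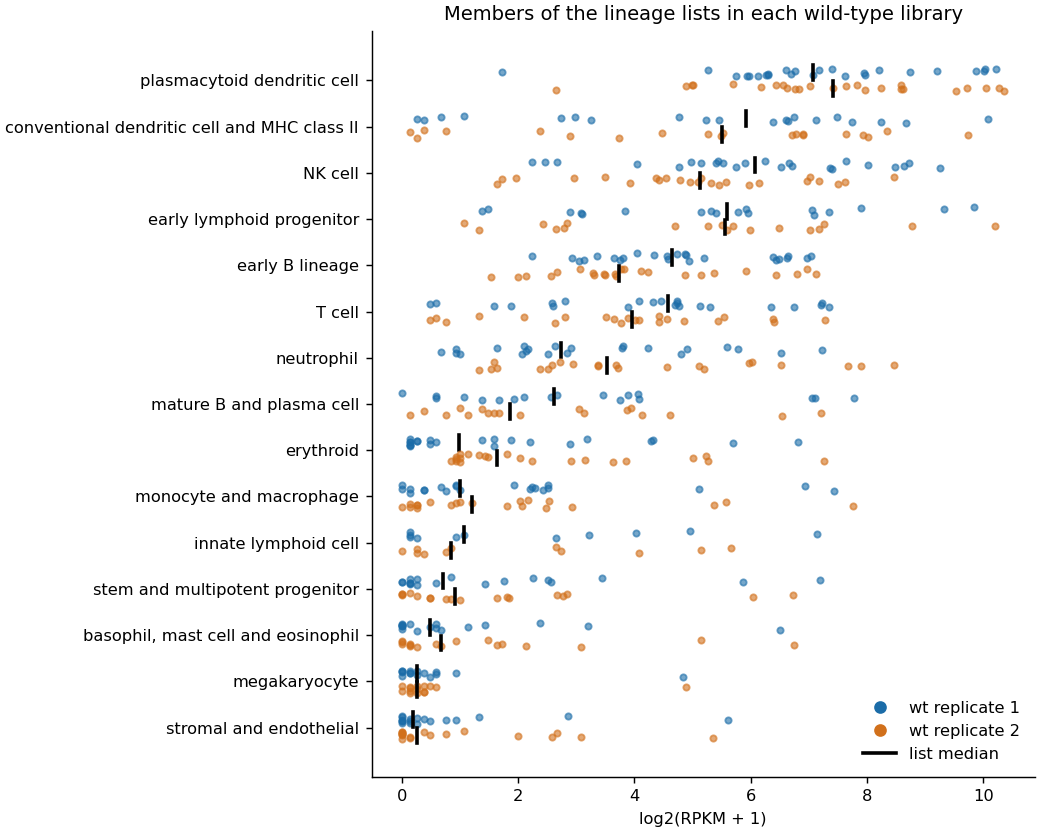
Members of the 15 lineage lists, each point 1 gene in 1 wild-type library (log2(RPKM + 1)), with the list median as a black bar for each library. The pDC list has the highest median in both libraries (133 and 170 RPKM), and the megakaryocyte and stromal lists lie near 0.

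All 25 genes of the pDC list were at 1 RPKM or more in both libraries (all symbols 47.9%). Of these, 24 were at 10 or more (26%) and 14 at 100 or more (1.57%). The members of each list were chosen with earlier results of these data known, so the gap to all symbols is not a test. Membership does not mean that a gene is restricted to pDCs, since Irf8 is required for other dendritic cells as well. After the genes already named, the highest were Rnase6 (424.3 and 383.5 RPKM), Spib, an ETS factor of pDCs (295.3 and 382.7), and Cox6a2, a cytochrome oxidase subunit otherwise known from muscle (246 and 392.1). The lectin-like Cd300c was at 196.6 and 226.2 RPKM and the sodium pump subunit Atp1b1 at 250.1 and 301.8. The nucleic acid sensors Tlr9 and Tlr7 were at 76.3 and 85.2 and at 61.7 and 50.9 RPKM. Cadm1, an adhesion molecule, was the lowest, at 2.3 and 5.3.

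Interferon genes were listed at or near 0, which in this table does not show absence, since ubiquitous genes such as Eno1 (0 and 0.2 RPKM) were also listed there. Of 19 type I and III interferon genes, 17 were listed at 0 in both libraries, and the other 2, Ifnb1 and Ifnk, were at 0.1 RPKM in replicate 1 and at 0 in replicate 2. The interferon alpha genes are close copies of each other, and how reads shared among them were assigned is not given. Irf7, the factor that drives their transcription after sensing, was at 133.3 and 170.4 RPKM.

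The NK cell list had 24 of 24 members at 1 RPKM or more in both libraries (all symbols 47.9%). Of its members, 20 were at 10 or more (26%) and 6 at 100 or more (1.57%). The chemokine Ccl5 was highest (612.1 and 354.5 RPKM), ahead of Il2rb, Gzma, the granule protein Nkg7 (395.2 and 144) and the receptor Klrd1, which encodes CD94 (257.3 and 128.4). The cathepsin Ctsw was at 197.8 and 124.5 RPKM. The defining markers Ncr1, which encodes NKp46 (168.7 and 69.8), and Eomes, a T-box factor of NK cells (58.9 and 26.7), were present as well, and Klrg1, a receptor of mature NK cells, was the lowest member, at 3.7 and 2.3. In both libraries Gzma exceeded Gzmb (44.9 and 22.4) and perforin, Prf1 (75.1 and 39).

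In the T cell list 19 of 22 members were at 1 RPKM or more in both libraries (all symbols 47.9%). Its members at 10 or more numbered 15 (26%). The highest were Cd4, Thy1 (162.1 and 82.5 RPKM), the kinase Lck (148.6 and 83.4), Tcf7 (106.5 and 45.7), Cd2 (80.5 and 42.5) and the zeta chain Cd247 (38.3 and 20.6). Several of these are also made by pDCs or NK cells. Of the CD3 chains, Cd3g was at 34 and 22.5 RPKM, Cd3d at 25 and 15.2 and Cd3e at 13.9 and 12.6, and of the CD8 chains Cd8a was at 25.6 and 27.8 and Cd8b1 at 25.6 and 20.5. The lower members included Cd5 at 6 and 5.2, Trat1 at 2 and 0.5, the pre-T cell receptor chain Ptcra at 0.4 and 0.7, and Bcl11b, the factor of T lineage commitment, at 0.5 and 0.4.

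The early B lineage list covers the cells named in the label. Of its members, 24 of 24 were at 1 RPKM or more in both libraries (all symbols 47.9%). At 10 or more were 16 (26%), and at 100 or more 2 (1.57%). Its highest members were the adaptor Blnk (124.2 and 138.6 RPKM), Fcrla (130.9 and 123.8), Cd72 (97.8 and 109.8) and Il7r, followed by the receptor chain Cd79b (85.1 and 59.6) and Igll1. Blnk and Cd72 are not restricted to B cells. The commitment factors were lower, with Ebf1 at 13 and 7.4 RPKM and Pax5 at 7.8 and 5.4. Vpreb1, the partner of Igll1 in the surrogate light chain, was at 28.8 and 10.3 RPKM, and its close copy Vpreb2 at 6.6 and 1.9. The recombinase Rag1 was at 29.7 and 13.1 RPKM and Rag2 at 7.3 and 3. Beside the label of pro-B cells, transcripts of this list were present in both libraries, with a list median below that of the pDC list. In bulk RNA of a mixed gate these values do not show which cells made the transcripts.

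The early lymphoid progenitor list had 18 of 18 members at 1 RPKM or more in both libraries (all symbols 47.9%). Those at 10 or more numbered 12 (26%). Ly6d, Flt3 (135.1 and 144.1 RPKM) and Ccr9 (132.5 and 128.4) are also carried by pDCs, so this list does not separate the cell types. Dntt stood between Ly6d and Flt3 by its mean, and Ets1, a factor shared by T, B and NK cells, came next after Ccr9 at 162.1 and 89.1 RPKM.

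Among antigen-presenting genes, 16 of 20 were at 1 RPKM or more in both libraries (all symbols 47.9%). Those at 10 or more numbered 13 (26%) and those at 100 or more 7 (1.57%). Cd74 led, followed by H2-Aa (406 and 325.7 RPKM), Cst3 (299.9 and 258), H2-DMa (177.8 and 244.7), H2-Ab1 (212.7 and 198.5) and H2-Eb1 (138.7 and 103.4), most of which B cells and pDCs share with conventional dendritic cells. Other members linked to conventional dendritic cells were spread widely. Itgax, which encodes CD11c (98.5 and 118.5), Clec10a (106.5 and 109.1), Sirpa (97.1 and 118), Cd209a (82.6 and 45.3), Wdfy4 (42.9 and 43.9) and Clec9a (36.5 and 37.4) were above 30 RPKM in each library. The 4 lowest members were Zbtb46 (1.1 and 0.7), Batf3 (0.6 and 0.3), Itgae (0.3 and 0.2) and the chemokine receptor Xcr1 (0.2 and 0.1).

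Stem cell, macrophage, mast cell, platelet and stromal lists had low medians. The stem and multipotent progenitor list had 8 of 18 members at 1 RPKM or more in both libraries, a share near the 47.9% of all symbols, and was led by Ly6a (146.1 and 105.5 RPKM) and Lmo2 (57.2 and 64.6), which other cells also make, while Cd34 was at 1.7 and 2.1, and Tek was listed at 0. In the monocyte and macrophage list Cd68 (171.4 and 215.9) and Ccr2 (121.4 and 46.6) led and Csf1r, the defining receptor, was at 4.7 and 3.2, with Lyz1 listed at 0. The mast cell proteases Tpsab1, Tpsb2 and Mcpt4 were listed at 0, as were the platelet genes Gp6 and Treml1. Of the stromal list Cdh5, a cadherin of endothelium, was at 47.8 and 40.1 RPKM, the receptor Kdr at 6.3 and 7.5 and Emcn, another endothelial gene, at 0.2 and 0.1, and Col3a1, Pdgfra, Lum, Dcn and Nes were listed at 0.

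The lineage transcription factors were led by members of the pDC list. Of 42 factors, 35 were at 1 RPKM or more in both libraries (all symbols 47.9%) and 6 at 100 or more (1.57%). Those 6 were Irf8, Spib, Irf7, Runx2 (166.9 and 250.2 RPKM), Tcf4, the E protein E2-2 that pDCs need (143.3 and 199.6), and Ikzf1, which encodes Ikaros (175.8 and 141.1). Id2, the inhibitor of E proteins in NK and innate lymphoid cells, was at 139.4 and 49.5 RPKM. The other E proteins Tcf12 (59.5 and 50.8) and Tcf3 (41.6 and 44.7) were lower than Tcf4.

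Further down came Myb (59 and 65.2 RPKM), Bcl11a (52.7 and 71), Runx3 (39.7 and 36), Ikzf3 (55.9 and 29.1), Tbx21 (30.5 and 19.6), and PU.1, listed under its older symbol Sfpi1 (22.5 and 25.8). Foxo1 was at 22.7 and 17.9 RPKM and Runx1 at 17.7 and 18.8. The factors of other lineages closed the list, with Gata3 at 5 and 3.3, Cebpe at 0.6 and 2, Gata1 at 0.1 and 1 and Gata2 at 0.1 and 0.4.

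**Figure D3:**
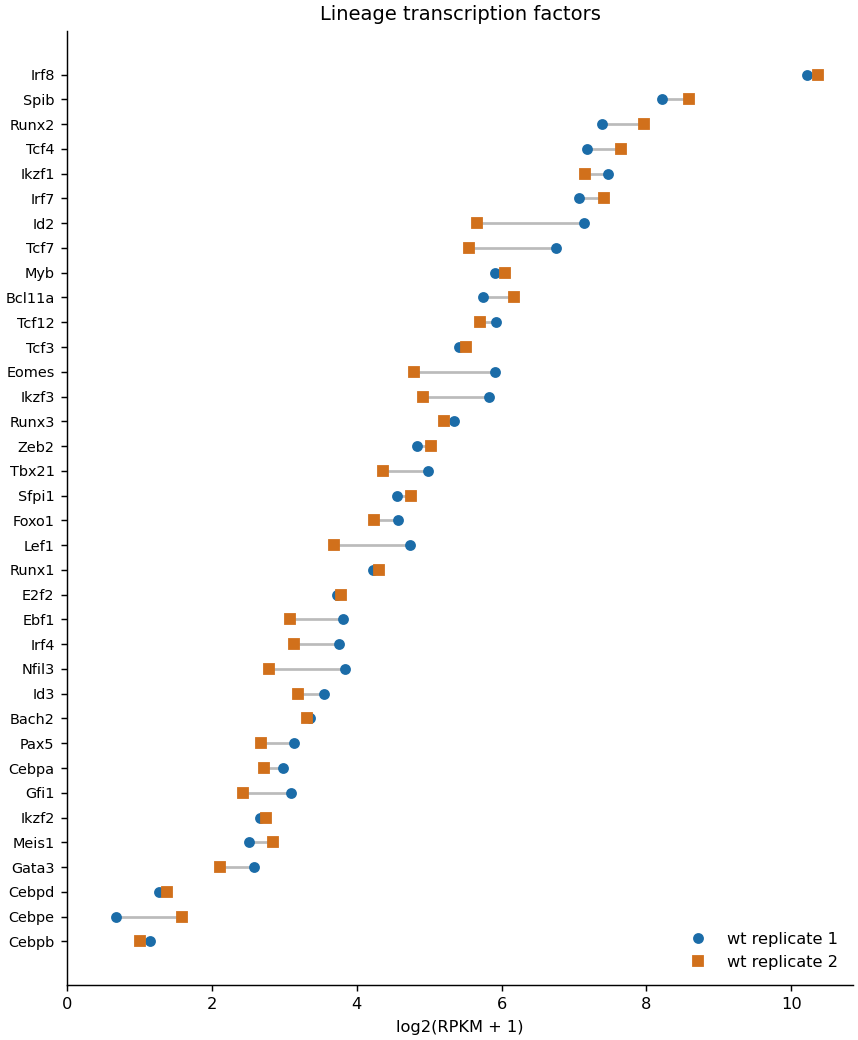
Levels of the 36 lineage transcription factors whose mean reached 1 RPKM (log2(RPKM + 1)) in each wild-type library, ordered by their mean. Irf8 is highest (1190.3 and 1317.2 RPKM), and Id2, Tcf7 and Eomes are among the factors with the widest gap between libraries.

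The 2 libraries were close for most genes. Over the 10835 symbols whose mean reached 1 RPKM, the median absolute difference in log2(RPKM + 1) was 0.191, and 88.4% of symbols differed by less than 0.5. This scale understates the difference of low genes. The median signed difference was -0.09, and 35.2% of symbols were higher in replicate 2 and 62.6% lower. By at least 1 on this scale 62 symbols (0.572%) were higher and 180 (1.66%) lower in replicate 2. Each of these counts sets 1 library beside another and has no test.

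**Figure D4:**
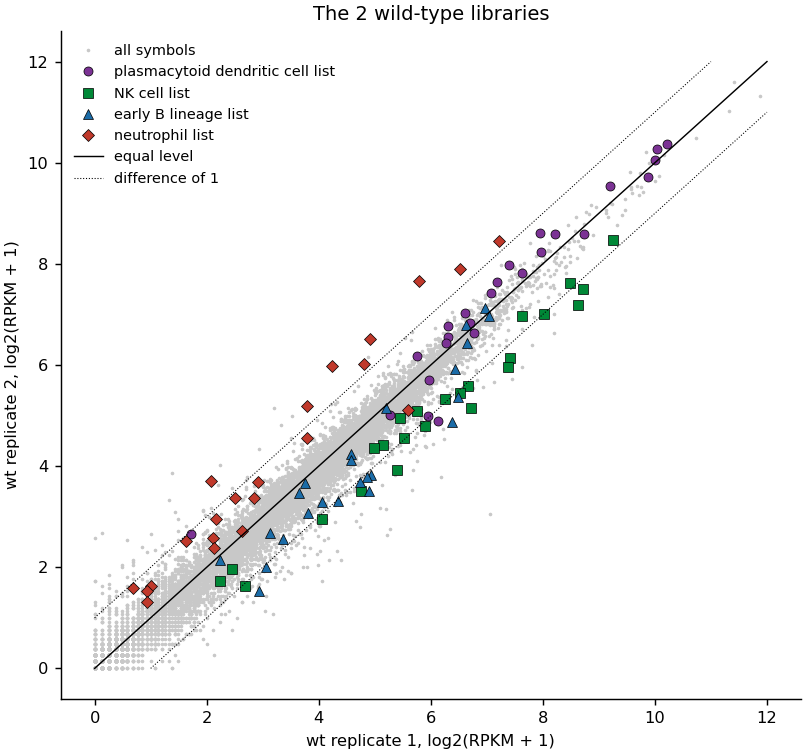
Level of every symbol in wt replicate 1 against wt replicate 2 (log2(RPKM + 1)), with 4 lineage lists coloured, the line of equal level and dotted lines at a difference of 1. The NK members lie below the line of equal level and 21 of 22 neutrophil members above it.

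The lineage lists differed in direction between the libraries. Of the 10835 symbols compared, 62.6% were lower in replicate 2, and 1.66% were lower by at least 1. Every NK member was lower in replicate 2 (24 of 24, median log2 difference -1.02, from -1.56 to -0.49), and 12 of 24 were lower by at least 1. The summed level of the list was 3304 RPKM in replicate 1 and 1612 in replicate 2. The early B lineage list was lower for 22 of 24 members (median -0.62, 9 by at least 1), with Vpreb3 at 82.6 and 28.2 RPKM and Igll1 2.19-fold lower. The T cell list was lower for 17 of 20 members compared (median -0.57). Blnk and Cd72 were the early B members that were not lower, and Cd4, Cd8a (25.6 and 27.8) and Cd6 (5.1 and 6) the T cell members that were not.

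The pDC list went the other way, with 18 of 25 members higher in replicate 2 (all symbols 35.2%) and a median of 0.24. Of its members, 0 were higher by at least 1 (all symbols 0.572%). Irf8 was 1.11-fold higher, and Cox6a2 was at 392.1 against 246 RPKM. The 7 pDC members lower in replicate 2 were Siglech, Rnase6, Tlr7, Lair1 (108 and 98.2), Lifr (37.7 and 31.2), Klk1 (60.5 and 30.8) and Ly6c2, which was lower by 1.24. The distance between the medians of the pDC and NK lists was 0.98 in replicate 1 and 2.3 in replicate 2 on the log2(RPKM + 1) scale, and between the pDC and early B lists 2.41 and 3.69. That between the NK and early B lists was 1.43 and 1.39, and that between the early B and neutrophil lists 1.91 and 0.2.

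Neutrophil genes were higher in replicate 2 for 21 of 22 members (median 0.82, 8 by at least 1), the exception being Pglyrp1 (47.4 and 33.7 RPKM). Among all symbols compared, 35.2% were higher and 0.572% were higher by at least 1. The calgranulin gene S100a9 was at 148.5 and 350.6 RPKM, its partner S100a8 at 90.7 and 236.6, and the granule proteins Ngp, Camp and Ltf at 54.3 and 202.7, 29.1 and 90.4, and 17.9 and 61.8. The primary granule genes were low in both libraries, with Mpo at 12.8 and 22.5 and Elane at 4.7 and 9.4. The erythroid list was higher for 10 of 14 members compared (median 0.69), with the heme enzyme Alas2 at 3.6 and 11.4 and the anion exchanger Slc4a1 at 1.6 and 13.5. Its leading member Tfrc, the transferrin receptor of dividing cells, was at 111.5 and 152.6 RPKM. The 4 erythroid members that were lower in replicate 2 were Car2 (51 and 31.2), Fech (8.1 and 7.9), and Hba-a1 and Hba-a2 (each 2 and 1).

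Genes of some rarer cells also differed between the libraries. Prg2, an eosinophil granule protein, was at 8.2 and 34.6 RPKM, the widest gap upward among named symbols averaging 10 RPKM or more. The basophil proteases Prss34 and Mcpt8 were at 1.7 and 7.5 and at 0.6 and 3.4. Of the 7 members of their list compared, 6 were higher in replicate 2 (all symbols 35.2%), and Cma1 was lower (4.2 and 1.8). Of the 6 stromal and endothelial members compared, 5 were higher in replicate 2 (35.2%), 3 of them by at least 1 (all symbols 0.572%). Those 3 were Col1a1 (listed at 0 and at 5 RPKM), Col1a2 (0.1 and 5.4) and Sparc (0.4 and 3). Cdh5 was lower, and Alpl, whose mean was under 1 RPKM, was at 1.5 and 0.3. In the other direction Igj, the joining chain of secreted antibody, was at 132.1 and 7.3 RPKM, 18.1-fold lower in replicate 2. Of the plasma cell genes beside it, Xbp1 was at 218.5 and 147.1, 2010001M09Rik, the older symbol of Mzb1, at 136.8 and 91.9, Sdc1 at 13.8 and 14.3 and Prdm1 at 5.4 and 2.

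**Figure D5:**
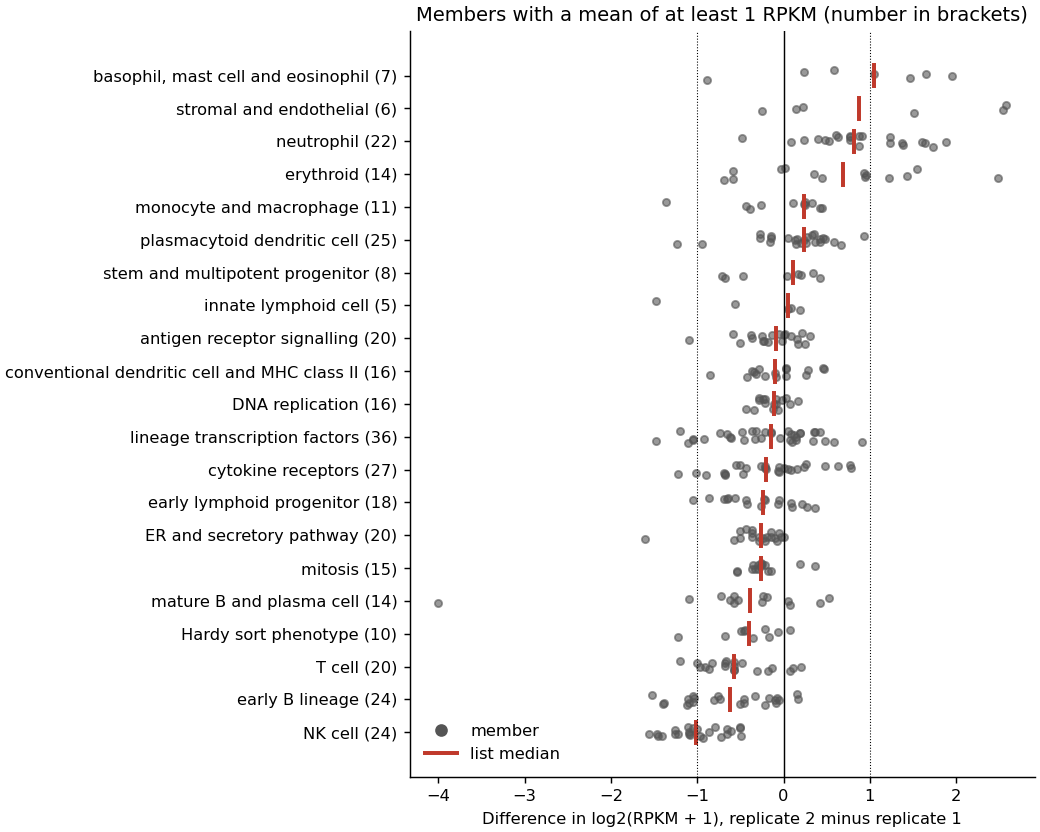
Difference between the wild-type libraries in log2(RPKM + 1), replicate 2 minus replicate 1, for members whose mean reached 1 RPKM, in lists with at least 5 such members (number in brackets), with the list median in red. The medians run from -1.02 in the NK list to 1.05 in the basophil, mast cell and eosinophil list, whose 7 compared members include the widely made receptor Csf2rb2.

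The 10 largest gaps upward among named symbols averaging 10 RPKM or more were Prg2, 7 neutrophil genes (Ngp, Ltf, Camp, Retnlg, S100a8, S100a9 and Lcn2), Vasn (9 and 27 RPKM) and Leng8 (28.3 and 70.4). The 10 largest downward were Igj, the myosin light chain Myl10 (37.8 and 5.8), the checkpoint receptor Tigit (35.6 and 7.9) and 7 ribosomal protein genes, with Rpl34 at 36.3 and 5.2 and Rplp0 at 49.5 and 10.6. Ribosomal protein symbols made up 27 of the 180 that were lower by at least 1, and 70 of the 10835 symbols compared. Of these 70, 63 were lower (median -0.65), where 62.6% of all symbols were lower. The part of near-identical copies in these values was not tested. Of the 62 symbols that were higher, 19 belonged to a lineage list and 20 were unnamed transcripts or small RNAs. All 19 were neutrophil (8 of 22 compared), erythroid (4 of 14), stromal (3 of 6), or basophil, mast cell and eosinophil genes (4 of 7). Of all symbols compared, 0.572% were higher by at least 1. Of the 180 that were lower, 28 belonged to a lineage list, among them 12 of the 24 NK and 9 of the 24 early B members compared. Over all symbols compared, 1.66% were lower by at least 1.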

How the data were processed

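Sorted cells gave RNA that was enriched for mRNA and made into Illumina TruSeq libraries, as the labels record. The authors deposited RPKM values, per the file headers, for 26531 RefSeq transcripts, written to 1 decimal, and 1 further line without a gene was left out. TopHat, bedtools and build mm9 are named without versions, per the submitters' processing notes. The read total of each wild-type library is not given in the sources used here, so depth is unknown and no counting interval is given. A value of 0 is given as listed at 0. Whether strand was used, and how reads of overlapping or copied genes were assigned, is likewise not given.

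From these values, 22098 symbols were kept, with the highest transcript for each of the 3305 symbols that have several. Levels, ranks and differences (pseudocount 1) were computed with Python 3.11.15, pandas 2.3.3 and numpy 2.4.6, with steps checked on simulated data. The gene lists (15 of lineages and 8 of functions) hold 472 entries, of which 469 matched, 3 of them by a RefSeq synonym. The members and lists were chosen with earlier results of these data known. Named genes are the 30 highest symbols, the 6 highest members of each list and those listed at 0, all sort genes and lineage factors, and the 10 largest gaps in each direction at a mean of at least 10 RPKM. Other list members were named after their values were seen. Some genes that the rule would name are not reported here. Symbols without a gene name and small RNAs are counted but not named. The alternatives were summed or longest transcripts, other thresholds and pseudocounts, rescaling, and leaving out a library. No p-values were computed.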

Additional observations from a re-analysis of the deposited data

How the results depend on the processing

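No paired analysis was possible because 1 group was described and no result comes from a test. The count of symbols at 1 RPKM or more stayed within 1.5 times its value of 10576 under all 6 alternatives run. The share of summed RPKM held by the 100 highest symbols was 19.4% and became 20.1% with the longest transcript of each symbol. The distance between the NK and early B list medians (1.41) was 1.64 with summed transcripts, 1.45 after rescaling to a common sum and 1.13 with means in place of medians. The other 3 distances moved by less than the spread between libraries under every alternative that kept both. With 1 library left out, the pDC to NK distance ran from 0.98 to 2.3 and the early B to neutrophil distance from 0.2 to 1.91. Leaving out members of more than 1 list changed nothing, since there were none. The count of symbols higher in replicate 2 by at least 1 was 62, and became 113 with a pseudocount of 0.1, 18 with 5 and 27 with a mean of at least 5 RPKM. The count of those lower was 180, and became 317 with 0.1, 70 with 5 and 118 after median centring. After median centring and after quantile normalization, the median difference of the conventional dendritic cell list turned from -0.1 to 0.01. The directions given for the pDC, NK, T cell, early B, neutrophil and erythroid lists held under all 7 alternatives run. Rounding to 1 decimal limits levels under 1 RPKM.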

Other observations

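Genes of cell division were present at moderate levels. All 15 mitosis genes and all 16 DNA replication genes were at 1 RPKM or more in both libraries (all symbols 47.9%). In each list 11 were at 10 or more (26%). Top2a, a topoisomerase of dividing cells, was at 90.6 and 71.7 RPKM, the proliferation antigen Mki67 at 65.2 and 51.1, and the replicative helicase subunit Mcm6 at 96.4 and 78.4. The mitosis list was lower in replicate 2 for 13 of 15 members (median log2 difference -0.26) and the replication list for 13 of 16 (median -0.11), where 62.6% of all symbols were lower. Which cells of the gate were dividing was not tested.

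The folding and secretory genes of the endoplasmic reticulum stood high. Of 20 genes, 20 were at 1 RPKM or more in both libraries (all symbols 47.9%) and 10 at 100 or more (1.57%). The list median was 120 and 105 RPKM. The chaperones Hsp90b1 (573.3 and 485.8), Hspa5 (357.8 and 263.1) and Calr (348.4 and 313.9) led, followed by the disulfide isomerase Pdia3 (236.9 and 182.5), the factor Xbp1 and Herpud1 (170.7 and 159.2). pDCs and plasma cells are both known for a developed secretory apparatus.

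The antigen receptor signalling list includes the B cell receptor chains Cd79a and Cd79b. All of its 20 genes were at 10 RPKM or more in both libraries (all symbols 26%) and 8 at 100 or more (1.57%). After Tyrobp, the Fc receptor gamma chain Fcer1g was at 420.9 and 322.2 RPKM, the phosphatase Ptpn6 at 274.7 and 341.8, and the kinase Syk, listed under its older symbol Sykb, at 179.5 and 181.8. Pik3cd was at 160.7 and 146.3 and Pik3ap1, the BCAP adaptor, at 140.9 and 162.9. Of 30 cytokine receptor genes 27 were at 1 RPKM or more in both libraries (all symbols 47.9%). Il2rb and Flt3 led, ahead of the common gamma chain Il2rg (164.9 and 102.5), the interferon receptor chain Ifnar2 (124.4 and 139.5), Il7r and Il10ra (97.4 and 84.8).

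The CpG content of upstream sequences is given as a description. The median ratio of observed to expected CpG in the 250 bases before the start was 0.373 over all 32851 sequences, 0.232 over 27 sequences of the pDC list (20 of 25 genes matched) and 0.16 over 19 of the neutrophil list (19 of 22). It was 0.86 over 14 of the DNA replication list (13 of 16) and 0.884 over 17 of the secretory list (17 of 20). For the NK, T cell and early B lists the comparison is void, since fewer than 80% of their genes matched (70.8%, 63.6% and 75%). Symbols whose mean reached 1 RPKM had a median of 0.733 (9789 sequences), with the same limit, since 70.9% of them matched. The replication and secretory lists lie nearer to 0.733 than to 0.373, and the pDC and neutrophil lists lie below both values.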
